A study of Homo sapiens with 9 samples.

Results

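The 10 genes described here let a cell finish copying DNA that is damaged or whose replication fork has stalled: the translesion polymerases POLH, POLK, POLI and REV1, the polymerase zeta subunits REV3L and MAD2L2, the primase-polymerase PRIMPOL, and the ubiquitin ligases RAD18, HLTF and SHPRH. They were chosen by name, though with earlier results of these data known. All 10 are among the 15436 genes of the deposited expression table, and all 10 were among the 11346 genes with enough reads to be tested.

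RNA was sequenced from Raji, an established B-cell line from a human Burkitt lymphoma, in 9 libraries. Of these, 3 came from cells given the solvent dimethyl sulfoxide (DMSO), 3 from cells given hydroxyurea (HU) and 3 from cells given thymidine and nocodazole (Thy-Noc). HU slows replication by depleting deoxynucleotides, excess thymidine does so by unbalancing them, and nocodazole blocks mitosis by depolymerising microtubules. All groups come from 1 line, and the labels state neither doses nor exposure times. Nothing in the labels says that the 3 libraries of a group came from separate cultures, so p-values measure only the spread between these libraries, which may be technical.

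Damaged bases block the replicative polymerases. RAD18 then attaches 1 ubiquitin to PCNA, the sliding clamp of the fork, which recruits Y-family polymerases whose open active sites copy across the lesion. HLTF and SHPRH can extend that ubiquitin into a chain that favours error-free template switching, HLTF can also reverse forks, and PRIMPOL restarts synthesis beyond the block. In germinal-centre B cells, the stage that Burkitt lymphoma resembles, POLH also takes part in somatic hypermutation of antibody genes.

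Deposited totals ran from 74940755 to 110485145 estimated reads per library. All 8 B-cell markers examined were listed, with CD79A at 255 ± 7.09 CPM (counts scaled to library size; SD, n = 3) and CD79B at 690 ± 174 in DMSO, while MS4A1, which encodes CD20, stood at 14.8 ± 2.33 and CD22 at 2.53 ± 1.43. BLNK, an adaptor of the B-cell receptor, had a mean of 44.3 CPM in DMSO and 18.5 in HU, a difference that DESeq2 called and edgeR did not (adjusted p = 0.103). The fitted change from DMSO to HU was positive in 5 of the 8 markers. Among these were MS4A1, CD79A and CD22, with means of 24.4, 304 and 7.41 CPM in HU. Neither edgeR nor DESeq2 called any of the 5. Of 12 markers of other cell types 3 were listed. LYZ and NKG7 were below 1 CPM in every library, and the collagen gene COL1A1 had a mean of 2.61 CPM in DMSO and 10.3 in HU without passing the test of edgeR (adjusted p = 0.0859), while DESeq2 called it higher in HU than in DMSO and in Thy-Noc. The part of BLNK and COL1A1 in any result was not tested. In bulk RNA, fewer cells carrying a transcript and less transcript per cell cannot be told apart.

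By edgeR only POLK passed the test in any of the 3 comparisons: it was 1.96-fold higher in HU than in DMSO. DESeq2, run as an alternative, also called SHPRH higher in HU than in both other groups, HLTF lower in HU than in Thy-Noc, and POLK higher in Thy-Noc than in DMSO. The opposite direction was seen for HLTF, whose 3 HU libraries all lay below the 3 DMSO libraries, without passing that test. POLH and MAD2L2 differed little between groups. POLI had overlapping groups and a less precise estimate (0.41 ± 0.30 on the log2 scale for HU against DMSO, SE). In REV1, RAD18, PRIMPOL and SHPRH, the libraries of a single group lay more than 10-fold apart even after 0.5 CPM was added to each, so that for these genes the values of single libraries say more than the means.

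**Figure D1:**
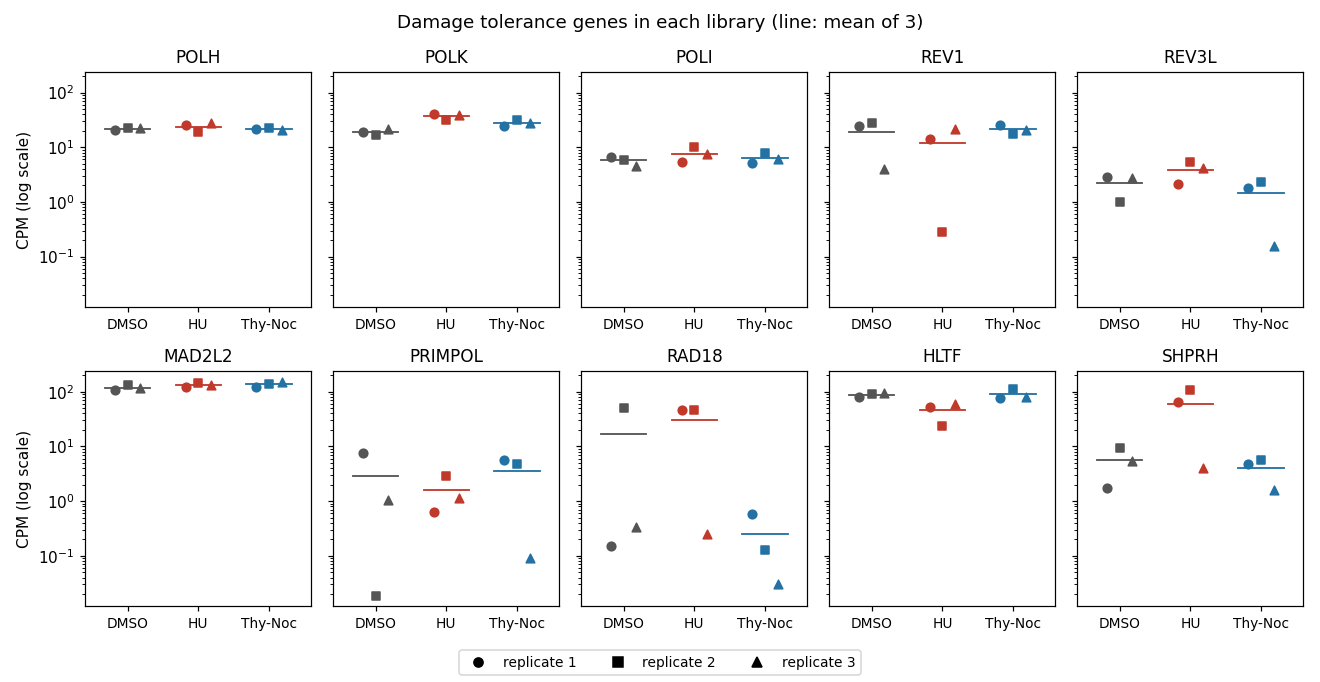
CPM (log axis) of each of the 10 genes in each library, by treatment; symbols give the replicate and lines the mean of 3. POLK is higher in all 3 HU libraries (31.9 to 39.7) than in the DMSO libraries (16.6 to 21.7), HLTF is lower, and RAD18, REV1, PRIMPOL and SHPRH scatter widely within a group.

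The upstream sequences of 3 genes are shown, since POLK carried the call, HLTF was the other gene whose HU and DMSO libraries did not overlap, and SHPRH had the largest fitted difference between HU and DMSO of the 10 genes. Each is taken from RefSeq (GRCh38.p14), where a window of 250 bases ends before the annotated start, and is limited to the longest stretch outside exons of any gene in GENCODE 29. The stretches are the 54 bases at chr5:75511702-75511755 on the plus strand for POLK, the 229 bases at chr3:149086555-149086783 on the minus strand for HLTF, and the 185 bases at chr6:145964424-145964608 on the minus strand for SHPRH. Each ends just before the first GENCODE base of its gene, and the POLK stretch begins where exon sequence of the divergent gene COL4A3BP ends. Capitals mark matches, on either strand, to any of the motifs searched.
POLK: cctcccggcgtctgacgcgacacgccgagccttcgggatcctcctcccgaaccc
HLTF: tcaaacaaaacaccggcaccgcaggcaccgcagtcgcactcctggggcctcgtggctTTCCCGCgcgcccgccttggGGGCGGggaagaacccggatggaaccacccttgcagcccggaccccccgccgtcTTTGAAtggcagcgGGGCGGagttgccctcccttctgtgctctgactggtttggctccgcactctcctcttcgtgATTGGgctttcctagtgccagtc
SHPRH: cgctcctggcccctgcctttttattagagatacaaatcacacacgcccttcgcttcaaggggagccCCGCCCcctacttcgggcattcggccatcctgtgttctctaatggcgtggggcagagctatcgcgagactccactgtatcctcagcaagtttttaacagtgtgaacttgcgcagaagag

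The GC box was searched as GGGCGG and the CCAAT box by those letters. For the E2F family the search used TTCCCGC, and for the cell-cycle homology region (CHR) it used TTTGAA. The core of ATF and CREB sites was TGACGT, that of the ETS family was CCGGAAG, and for the factor NRF1 part of its site, GCGCATG, was used. Matches could overlap one another. The HLTF window held 2 GC boxes, 1 CCAAT box read as ATTGG, 1 E2F core and 1 CHR. Among 35116 windows of 250 bases, 42.6% held a GC box, 32% a CCAAT box, 5.52% an E2F core and 13.3% a CHR. The windows of POLK and SHPRH held 2 GC boxes each and none of the other motifs. Both GC boxes of POLK and 1 of SHPRH lie outside the stretches shown. The ATF and CREB core was in 7.1% of windows, the ETS core in 8.52% and the NRF1 letters in 3.77%. These are matches of letters, and no binding was measured.

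Levels were set side by side only after dividing by exon length in GENCODE 29. In DMSO, MAD2L2 led with 35.9 ± 3.37 CPM per kilobase (SD, n = 3), followed by HLTF with 14.5 ± 1.32 and POLH with 6.14 ± 0.375. RAD18 (2.44), REV1 (2.40) and POLK (2.08) came next as means, then PRIMPOL (1.02), POLI (0.604), SHPRH (0.314) and REV3L (0.176), the catalytic subunit of polymerase zeta. Only MAD2L2 and HLTF stood clear of the gene below them in every DMSO library; from POLH downwards each gene overlapped the next. MAD2L2 also stood highest in HU (40.5 ± 3.51) and in Thy-Noc (41.7 ± 4.23), while RAD18 stood last in Thy-Noc with 0.0357 CPM per kilobase. The abundant MAD2L2 (REV7) serves more than polymerase zeta: it also acts in the shieldin complex at DNA breaks and binds mitotic regulators.

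POLK (chromosome 5, 75511756 to 75601144, GRCh38) encodes polymerase kappa, which extends mismatched ends and copies past bulky adducts on guanine. It stood at 18.6, 16.6 and 21.7 CPM in the DMSO libraries, at 39.7, 31.9 and 39.6 in HU and at 24.5, 31.2 and 27.9 in Thy-Noc. All 3 HU libraries lay above all Thy-Noc libraries, and all of these above the DMSO libraries, so none of the groups overlapped.

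Between HU and DMSO the log2 fold change of POLK was 0.97 ± 0.17 (SE), with an adjusted p of 0.0327 by edgeR's quasi-likelihood test and Benjamini-Hochberg adjustment over all 11346 genes. DESeq2 gave an adjusted p of 2.743e-07 and limma 0.0262. With 1 library left out the log2 fold change stayed between 0.89 and 1.08, but the adjusted p passed 0.05 without DMSO replicate 1 (0.109), 2 (0.116) or 3 (0.0837), without HU replicate 1 (0.0946) or 3 (0.104) and without Thy-Noc replicate 3 (0.0569). Between Thy-Noc and DMSO it was 0.56 ± 0.17, which did not pass (adjusted p = 0.9998 by edgeR, 0.0464 by DESeq2). Between HU and Thy-Noc it was 0.41 ± 0.17 (adjusted p = 0.235 by edgeR). The first 2 comparisons share the DMSO libraries.

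COL4A3BP, now named CERT1, encodes a ceramide transfer protein and overlaps POLK on the opposite strand. It stood at 78.5, 67.8 and 2.28 CPM in DMSO, at 99.7, 87.0 and 2.74 in HU and at 9.97, 15.7 and 79.5 in Thy-Noc. Its low libraries were DMSO 3, HU 3 and Thy-Noc 1 and 2, an arrangement not seen in POLK. Whether the counting used strand is not stated. Whether reads of either gene entered the count of the other was not tested.

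Over the 9 libraries, the genes whose log2(CPM + 0.5) was most like that of POLK were OTOA (Pearson's r = 0.956), SEMA7A (0.954) and UBE2Z (0.947), among tested genes with a mean of at least 5 CPM. SEMA7A, a membrane-anchored semaphorin, stood at 5.84, 3.28 and 7.96 CPM in DMSO, at 26.1, 22.3 and 25.7 in HU and at 8.36, 11.4 and 8.94 in Thy-Noc. UBE2Z, a ubiquitin-conjugating enzyme of the UBA6 pathway, ran from 127.5 to 141.1 in DMSO, from 169.2 to 193 in HU and from 136.7 to 159.5 in Thy-Noc. In each, as in POLK, every HU library was above every other library. The 9 points share their 3 treatments, and the correlations are given as a description.

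POLH (chromosome 6, 43576150 to 43615660) encodes polymerase eta, which copies accurately past ultraviolet-induced thymine dimers and is lost in the variant form of xeroderma pigmentosum. It stood at 20.3, 22.0 and 22.9 CPM in DMSO, at 25.3, 18.7 and 27.3 in HU and at 21.7, 22.8 and 20.6 in Thy-Noc. HU held both its lowest and its highest library. The log2 fold change was 0.13 ± 0.17 for HU against DMSO (adjusted p = 0.755 by edgeR) and -0.0012 ± 0.17 for Thy-Noc against DMSO.

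POLI (chromosome 18, 54269404 to 54321266) encodes polymerase iota, a highly error-prone enzyme and a paralog of POLH. Its DMSO libraries stood at 6.62, 5.95 and 4.59 CPM, its HU libraries at 5.30, 10.003 and 7.45 and its Thy-Noc libraries at 5.07, 7.79 and 6.16. The 3 groups overlapped, with HU replicate 2 the highest library. HU differed from DMSO by 0.41 ± 0.30 on the log2 scale (adjusted p = 0.497 by edgeR).

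REV1 (chromosome 2, 99400475 to 99490035) inserts cytosine opposite lesions and is the scaffold that other translesion polymerases bind. It stood at 24.6, 27.3 and 4.07 CPM in DMSO, at 14.1, 0.285 and 21.8 in HU and at 25.7, 17.7 and 20.6 in Thy-Noc. Thy-Noc was even, while DMSO replicate 3 and HU replicate 2 stood far below the rest of their groups. The fitted difference of HU from DMSO was -0.63 ± 1.23 on the log2 scale (adjusted p = 0.859 by edgeR). Without HU replicate 2 it was -0.05.

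EIF5B, a translation initiation factor that overlaps REV1 on the opposite strand, was uneven in all 3 groups. It stood at 3.01, 7.53 and 313 CPM in DMSO, at 252, 1.08 and 4.48 in HU and at 3.99, 274 and 4.25 in Thy-Noc. REV1 was low in DMSO replicate 3, where EIF5B was high, and in HU replicate 2, where EIF5B was at its lowest. Whether reads of REV1 and EIF5B entered each other's counts was not tested.

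Polymerase zeta extends from the base that a Y-family polymerase has inserted. Its catalytic subunit REV3L (chromosome 6, 111299028 to 111483715) stood at 2.84, 0.980 and 2.75 CPM in DMSO, at 2.10, 5.38 and 4.16 in HU and at 1.83, 2.34 and 0.155 in Thy-Noc. The groups overlapped, and the lowest value was Thy-Noc replicate 3. The log2 fold change was 0.83 ± 0.89 for HU against DMSO (adjusted p = 0.683 by edgeR) and 1.43 ± 0.90 for HU against Thy-Noc (adjusted p = 0.462), which was 0.90 without Thy-Noc replicate 3.

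Its partner MAD2L2 (chromosome 1, 11674480 to 11691650), which links REV3L to REV1, was even, with overlapping groups. It stood at 108.6, 130.9 and 118.1 CPM in DMSO, at 123.0, 146 and 134 in HU and at 124, 140 and 152 in Thy-Noc. HU differed from DMSO by 0.17 ± 0.12 on the log2 scale and Thy-Noc from DMSO by 0.22 ± 0.12, with adjusted p = 0.467 and 0.9998 by edgeR.

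PRIMPOL (chromosome 4, 184649613 to 184694963) lays new primers ahead of a stalled fork. It stood at 7.64, 0.0187 and 1.03 CPM in DMSO, at 0.645, 2.90 and 1.16 in HU and at 5.74, 4.75 and 0.0932 in Thy-Noc. The 3 DMSO values rest on 603, 2 and 81 deposited counts. The highest and the lowest of the 9 libraries were both DMSO libraries. The fitted difference of HU from DMSO was -0.88 ± 1.78 on the log2 scale (adjusted p = 0.863 by edgeR) and became 1.59 without DMSO replicate 1. CENPU, a centromere protein gene that overlaps PRIMPOL on the opposite strand, varied far less, from 23.4 to 59.2 CPM over the 9 libraries.

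Of the ubiquitin ligases, RAD18 (chromosome 3, 8775402 to 8963773), which starts the pathway by ubiquitinating PCNA, had the widest spread of the 10 genes. It stood at 0.152, 50.7 and 0.331 CPM in DMSO, at 46.8, 45.7 and 0.248 in HU and at 0.587, 0.130 and 0.0311 in Thy-Noc. The values formed 2 levels: 3 libraries (DMSO replicate 2, HU replicates 1 and 2) were above 45 CPM and the other 6 below 1. Only through those 3 libraries did RAD18 meet the filter of at least 1 CPM in at least 3 libraries. The 3 Thy-Noc values rest on 43, 10 and 3 deposited counts.

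The fitted log2 fold change of RAD18 was 0.86 ± 2.26 for HU against DMSO, -6.10 ± 2.82 for Thy-Noc against DMSO and 6.96 ± 2.93 for HU against Thy-Noc. None passed (adjusted p = 0.900, 0.9998 and 0.253 by edgeR, with an unadjusted 0.0480 in the last), and the groups overlapped in each comparison, since DMSO replicate 1 and HU replicate 3 both lay below Thy-Noc replicate 1, and HU replicate 3 below DMSO replicate 2. DESeq2 gave no adjusted p for RAD18. Without Thy-Noc replicate 1 the differences of Thy-Noc from DMSO and of HU from Thy-Noc were -7.72 and 8.59, and by limma on log2(CPM + 0.5) they were -2.08 and 4.04. No other gene of the table overlaps RAD18.

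HLTF (chromosome 3, 149030127 to 149086554) is a translocase that builds ubiquitin chains on PCNA and remodels stalled forks. It stood at 78.3, 91.1 and 93.0 CPM in DMSO, at 52.9, 23.8 and 60.0 in HU and at 77.6, 112 and 79.5 in Thy-Noc. Every HU library was below every other library, while DMSO and Thy-Noc overlapped. The log2 fold change was -0.94 ± 0.34 for HU against DMSO (unadjusted p = 0.0258, adjusted p = 0.169 by edgeR) and -0.97 ± 0.34 for HU against Thy-Noc (unadjusted p = 0.0224, adjusted p = 0.184 by edgeR, 0.0483 by DESeq2). HU replicate 2 was the lowest; without it the difference from DMSO was -0.63. No listed gene overlaps HLTF.

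SHPRH (chromosome 6, 145864245 to 145964423), the other human counterpart of the yeast ligase Rad5, stood at 1.76, 9.42 and 5.42 CPM in DMSO, at 64.2, 108 and 4.005 in HU and at 4.67, 5.75 and 1.63 in Thy-Noc. HU replicates 1 and 2 stood far above all other libraries, and HU replicate 3 lay inside the range of the other treatments. The log2 fold change was 3.41 ± 1.19 for HU against DMSO (adjusted p = 0.160 by edgeR, 0.01126 by DESeq2) and 3.87 ± 1.21 for HU against Thy-Noc (adjusted p = 0.151 by edgeR, 0.00359 by DESeq2). Without HU replicate 2 these were 2.63 and 3.09, without DMSO replicate 2 the first was 4.04, and by limma they were 2.63 and 2.95. The 2 HU libraries with high SHPRH were also 2 of the 3 with high RAD18, and over the 9 libraries Pearson's r between these genes was 0.851, as a description.

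**Figure D2:**
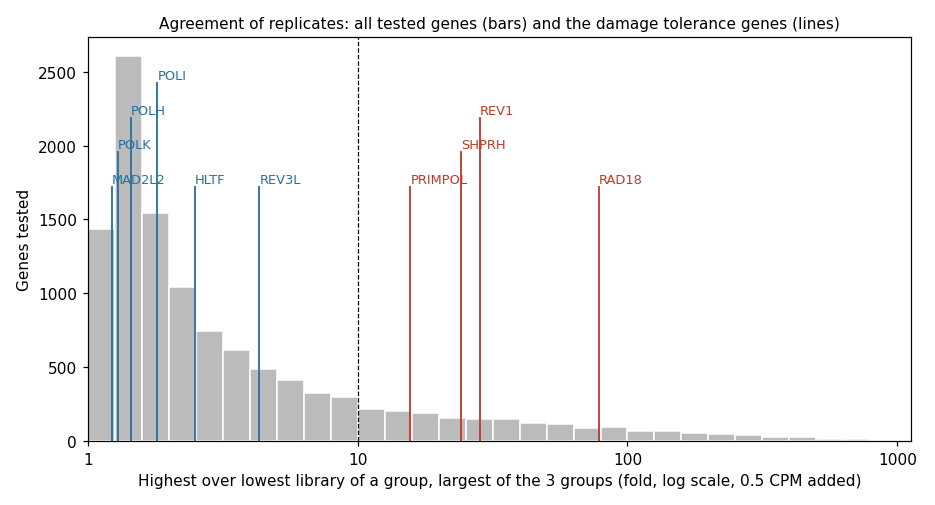
Distribution over the 11346 tested genes of the highest over the lowest library within a group, taken in the most uneven of the 3 groups after adding 0.5 CPM (log axis, number of genes per bar); lines mark the 10 genes. REV1, RAD18, PRIMPOL and SHPRH lie beyond 10-fold (dashed line), as do 16.2% of all tested genes.

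The unevenness of these 4 genes was measured against the whole table. After adding 0.5 CPM, the highest library of a group exceeded the lowest at least 10-fold in 1838 of 11346 tested genes (16.2%) and in 4 of the 10 genes described here. The ratio was 78.6 for RAD18 in DMSO, 28.45 for REV1 in HU, 24.2 for SHPRH in HU and 15.7 for PRIMPOL in DMSO. In POLK it was at most 1.30, and in MAD2L2 at most 1.23; over all tested genes the median of the largest ratio was 2.025. The share of such genes was 3.99% among genes with up to 3 annotated transcripts, 14.8% with 4 to 10 and 26.3% with 11 or more. PRIMPOL and SHPRH have 11 annotated transcripts each, RAD18 10 and REV1 16. POLK has 17 and POLI 16, and both were even. Whether the number of transcripts bears on the unevenness was not tested.

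**Figure D3:**
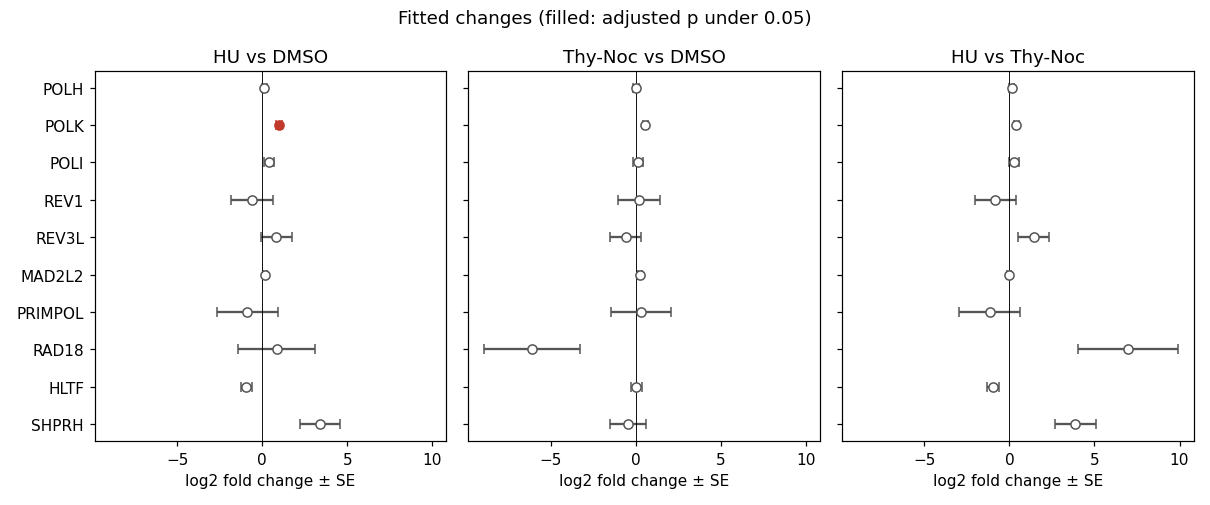
Fitted log2 fold change ± SE of the 10 genes in the 3 comparisons; a filled point has an adjusted p under 0.05. POLK in HU against DMSO (0.97 ± 0.17) is the only filled point, and the widest bars belong to RAD18.

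Counted together, 1 of the 10 genes passed between HU and DMSO by edgeR, where 3.56% of all tested genes did. The median log2 fold change was 0.29, against 0.02 over all genes, and 7 of 10 were positive, against 5824 of all 11346. Groups did not overlap in 2 (POLK, HLTF), against 30.7% of all tested genes, and 3 had an unadjusted p under 0.05 (POLK and SHPRH higher, HLTF lower), against 21.2%. Neither the share without overlap nor the share at the unadjusted p stood far from its background. DESeq2 called 2 (POLK, SHPRH; background 19.5%) and limma 1 (POLK; background 4.95%).

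Between Thy-Noc and DMSO none passed by edgeR, where 0.0353% of all genes did, and limma also called 0 (background 0.106%). The median was 0.09 against 0.006 over all genes. POLK alone had an unadjusted p under 0.05 (background 4.49%), groups without overlap (background 9.97%) and a call by DESeq2 (background 1.64%).

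Between HU and Thy-Noc none passed by edgeR (background 1.75%) or limma (background 2.87%), and the median was 0.19 against 0.01. An unadjusted p under 0.05 was found for 4: POLK, SHPRH and RAD18 higher and HLTF lower in HU (background 19.4%). RAD18 met the filter through no Thy-Noc library, so its p-value here is no independent support for a difference. Groups did not overlap in POLK and HLTF (background 24.9%), and DESeq2 called SHPRH higher and HLTF lower (background 16.7%).

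The rest of the pathway was followed in 7 lists with 74 tested genes: the PCNA clamp with its loaders, enzymes that attach or remove ubiquitin on PCNA, the VCP extraction machinery, other specialised polymerases, replicative polymerase subunits, fork reversal and protection, and single-strand binding with ATR signalling. Between HU and DMSO, edgeR and limma called 0 of the 74, while 4 were higher and 8 lower at an unadjusted p under 0.05, and the same numbers by DESeq2. Only the counts agreed: PCNA was among the genes at the unadjusted p, and RFC5 in its place among those called by DESeq2. Each 12 of 74 compares with the share of all tested genes, 21.2% at the unadjusted p and 19.5% by DESeq2. The median was -0.04 against 0.02 over all genes. List medians ran from -0.27 in the 12 replicative subunits to 0.33 in the 7 genes listed with other specialised polymerases. In that last list, the 2 genes with an unadjusted p under 0.05 by edgeR were both lower in HU.

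Between Thy-Noc and DMSO edgeR called 0 of the 74. At an unadjusted p under 0.05, 3 were higher and 2 lower (background 4.49%), and DESeq2 (background 1.64%) and limma (background 0.106%) called 1 each. The 3 higher were ETAA1, FBH1 and TIMELESS, named here to show what these counts rest on. DESeq2 called FBH1, and the call of limma fell in the list that holds ETAA1. ETAA1 and FBH1 met the filter through no DMSO library, so their p-values here are no independent support for a difference. Between HU and Thy-Noc edgeR called 1 lower, TIMELESS (background 1.75%), while 6 were higher and 9 lower at an unadjusted p under 0.05 (background 19.4%). ETAA1, which met the filter through no HU library, was among the 9 lower. DESeq2 called 4 higher and 6 lower (background 16.7%), and limma 1 higher and 2 lower (background 2.87%).

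TIMELESS, which travels with the fork and couples polymerase to helicase, stood at 146, 129 and 107 CPM in DMSO, at 55.3, 93.3 and 67.7 in HU and at 193, 194 and 187 in Thy-Noc. The 3 groups did not overlap, with HU lowest and Thy-Noc highest. HU against Thy-Noc gave -1.41 ± 0.20 on the log2 scale (adjusted p = 0.0345 by edgeR, 8.909e-09 by DESeq2, 0.0218 by limma). With 1 library left out the log2 fold change stayed between -1.63 and -1.25, but the call was lost in 8 of the 9 fits. The adjusted p was above 0.05 without DMSO replicate 1 (0.0639), 2 (0.0647) or 3 (0.0642), HU replicate 1 (0.0823) or 3 (0.112), or Thy-Noc replicate 1 (0.0858), 2 (0.0752) or 3 (0.119). Without HU replicate 2 it was 0.0250. The DMSO libraries are in neither group of this comparison, but share its estimate of the spread. The call was also lost in the fit to the 6 libraries of both groups (0.110).

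**Figure D4:**
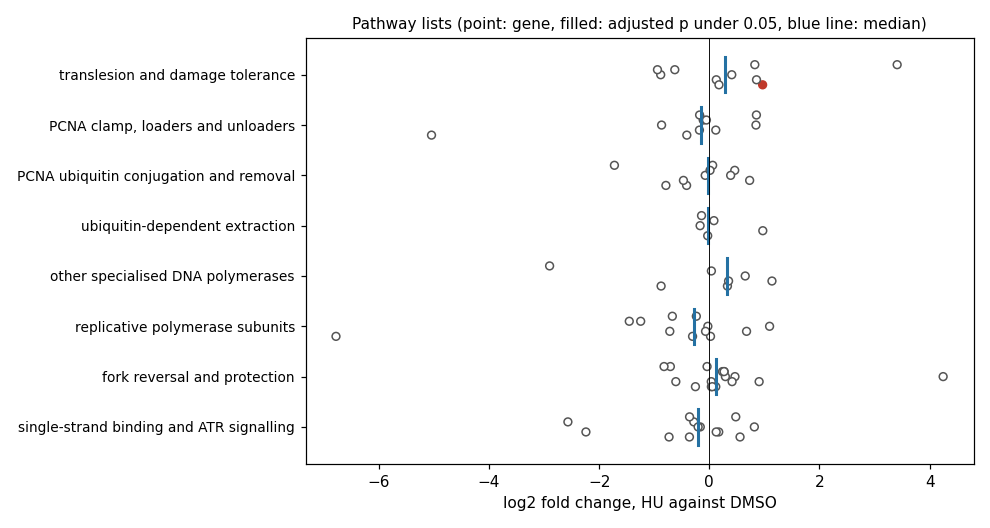
Log2 fold change of HU against DMSO for the tested genes of each list (points; filled where adjusted p is under 0.05) with the list's median (blue line); the 10 damage tolerance genes are in the top row. POLK (0.97) is the only filled point, and the list medians lie between -0.27 and 0.33.

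The clamp and its ubiquitin cycle were chosen for a closer description after their values were seen. PCNA itself had a mean of 442 ± 22.9 CPM under DMSO (SD, n = 3), of 333 ± 38.7 under HU and of 432 ± 76.0 under Thy-Noc. Its HU libraries lay below its DMSO libraries, by -0.41 ± 0.15 on the log2 scale, without passing the test (adjusted p = 0.1795 by edgeR). USP7, a deubiquitinase that acts on PCNA and on the p53 regulator MDM2, stood at 784 ± 83.7 CPM in DMSO, 454 ± 5.25 in HU and 692 ± 178 in Thy-Noc (HU against DMSO -0.79 ± 0.19, adjusted p = 0.0733). UBE2N and USP1, of the same list, did not meet the filter and were not tested. UBE2N was at most 0.0653 CPM in any library. USP1 stood at 174 CPM in HU replicate 1 and at most 0.574 in every other library.

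RFWD3, a ligase for the single-strand binding protein RPA that also promotes PCNA ubiquitination, was higher in each HU library than in any other: its means were 150 ± 5.003 CPM in DMSO, 197 ± 21.3 in HU and 140 ± 2.79 in Thy-Noc. The differences were 0.39 ± 0.09 on the log2 scale for HU against DMSO (adjusted p = 0.0725 by edgeR) and 0.49 ± 0.09 for HU against Thy-Noc (adjusted p = 0.0542). DESeq2 called USP7 lower and RFWD3 higher in both comparisons, and edgeR called neither.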

How the data were processed

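A stranded mRNA kit was used for the 9 Raji libraries, per the labels' protocols. FastQC, Trim Galore, STAR, DESeq2 and the build GRCh38 appear in the submitters' processing notes; what counted the reads, and with which strand setting, is stated neither in the labels nor in these notes. The values the authors deposited were read here to be expected counts, made by an estimate of reads per gene and rounded: they are named CPM but are whole numbers with unequal totals. No value is 0, and 274 genes stand at exactly 1 in each library. Whether a value holds all reads of its gene was not tested.

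Identifiers were matched to gene names for 15393 of 15436 genes. Genes with at least 1 CPM in at least 3 libraries (11346) were tested in R 4.3.3 with edgeR 4.0.16 (TMM, quasi-likelihood, 2-sided, group as the only term, all 9 libraries, 6 residual degrees of freedom), with Benjamini-Hochberg adjustment and a threshold of 0.05. The steps were tested on simulated counts, drawn with a smaller spread between libraries than was fitted to these data. That test does not show how they perform on genes as uneven as those here. The median tested count was 1187. Between libraries of 1 group, chi-square per degree of freedom was at least 732.3, so none repeats another. Alternatives were no filter, median-of-ratios scaling, DESeq2 1.42.0, limma 3.58.1 on log2(CPM + 0.5), a replicate block, only the 6 libraries compared, and each library left out. Leaving out uneven genes (10-fold within a group) was chosen after seeing the data.

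Named genes are the 10 genes, up to 4 called genes per pathway list and direction, and the 3 genes most like each called gene; others named are said to be so. The 10 genes and all lists were chosen with earlier results of these data known.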

Additional observations from a re-analysis of the deposited data

How the results depend on the processing

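Of 457 recomputed log2 fold changes of the 10 genes, 427 kept their direction and their side of the threshold, 8 lost the call (all POLK in HU against DMSO), 4 gained one by DESeq2 and 18 changed sign. Genes called between HU and DMSO were 404, and 220 with no filter, 2135 by DESeq2, 51 in the 6-library fit, 721 without uneven genes and 21 to 318 with 1 library left out. Between Thy-Noc and DMSO they were 4, and 179 by DESeq2, 12 by limma and 5 to 13 with 1 library left out. Between HU and Thy-Noc they were 199, and 64 with no filter, 1826 by DESeq2, 326 by limma, 18 in the 6-library fit, 472 without uneven genes and 1 to 103 with 1 library left out. Of the 10 genes, calls between HU and DMSO numbered 2 by DESeq2, 0 in the 6-library fit and 0 to 1 with 1 library left out; DESeq2 called 1 between Thy-Noc and DMSO and 2 between HU and Thy-Noc. The cause was not tested.

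POLK kept its direction in all 16 alternatives and its call in 8; the 6-library fit gave an adjusted p of 0.0706. Signs changed for PRIMPOL in HU against DMSO by limma (0.0014), and for POLH in Thy-Noc against DMSO without uneven genes (0.0010). With 1 library left out, Thy-Noc against DMSO ran from -0.15 to 0.13 for HLTF, -0.048 to 0.041 for POLH, -0.024 to 0.29 for POLI, -0.30 to 2.76 for PRIMPOL, -0.28 to 0.57 for REV1 and -0.88 to 0.16 for SHPRH; HU against DMSO ran from -1.67 to 1.59 for PRIMPOL, and HU against Thy-Noc from -0.11 to 0.036 for MAD2L2. RAD18 failed the filter in some of these fits and has no value there.

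With the replicate block, 9 genes were called between HU and DMSO, 0 between Thy-Noc and DMSO and 0 between HU and Thy-Noc, and 0 of the 10 genes in HU against DMSO, with POLK at 0.97 and an adjusted p of 0.0869; POLH in Thy-Noc against DMSO was 0.0021, and TIMELESS in HU against Thy-Noc lost its call (0.0996). Libraries with the same number did not deviate together: correlations of their deviations ran from -0.035 to 0.040, against -0.054 to 0.033 for other pairs. Each group has 3 libraries, and the spread between them enters every standard error. The lowest libraries of RAD18 and PRIMPOL hold 3 and 2 counts.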

Other observations

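ETAA1, an activator of the ATR kinase at stalled forks, stood at 17.0, 22.4 and 16.5 CPM in the 3 Thy-Noc libraries and below 1 CPM in all DMSO and HU libraries, the highest of which was 0.849 in DMSO replicate 2. ETAA1 met the filter of at least 1 CPM in at least 3 libraries only through the Thy-Noc group, where it was high. Its p-values are therefore no independent support for a difference. It did not pass the test (unadjusted p = 0.0075 and adjusted p = 0.9998 for Thy-Noc against DMSO, adjusted p = 0.0954 for HU against Thy-Noc, edgeR), and was chosen after its values were seen. In the list of single-strand binding and ATR signalling, limma called 1 gene higher in Thy-Noc than in DMSO. By edgeR, ETAA1 alone in that list had an unadjusted p under 0.05 in that comparison. POLE2, a subunit of replicative polymerase epsilon, stood at means of 21.6 CPM in DMSO, 7.89 in HU and 19.6 in Thy-Noc (HU against DMSO -1.45 ± 0.45 on the log2 scale, adjusted p = 0.126 by edgeR), and was chosen in the same way. DESeq2 called it lower in HU than in DMSO and than in Thy-Noc.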
